A study of Saccharomyces cerevisiae W303 with 28 samples.

Results

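The right part of chromosome 5 that lies far from a site-specific DNA double-strand break was examined for cohesin, as all 1 kb windows from 219001 to 552000 in the coordinates of the deposited windows. These are 333 of the 12447 windows of the genome, chosen by position alone and lying 99.5 to 432 kb right of the break and 20 kb or more from the right chromosome end. Of the 333 windows, 321 passed a filter on extract coverage (0.25 to 4 times the library median), and the other 12 lay in runs at 433001 to 440000 and 484001 to 489000. The comparison set was the 30 arms of the 15 uncut chromosomes, without the outer 20 kb and 15 kb to each side of the approximate centromere.

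Cohesin is a ring of proteins that holds sister chromatids together and shapes chromosomes into loops, and Scc1 is the kleisin subunit that closes the ring. In budding yeast, cohesin accumulates around a double-strand break, and damage also makes new cohesion possible on chromosomes that were not cut, so the uncut remainder of a cut chromosome is of interest. Rad17 belongs to the checkpoint clamp that is loaded at resected DNA ends, and Pds5 is a cohesin-bound protein that regulates both the stability and the release of the ring.

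Chromatin immunoprecipitation with sequencing (ChIP-seq) of Scc1 was available as 14 immunoprecipitates (IP) and their 14 whole-cell extracts, all from W303 yeast sampled after 4 h and calibrated with added Candida glabrata cells. Scc1-6HA was measured with a break and nocodazole, which arrests cells in mitosis, in wild type (strain APY875), rad17 (APY876), pds5-AID (APY878) and rad17 pds5-AID (APY877), with 2 libraries per group. Scc1-6HA was measured in 1 library without a break (APY879), in cells given galactose and nocodazole whose cut site is uncleavable. Scc1-PK9 was measured in 1 library each for wild type with a break with and without nocodazole (APY573), wild type with an uncleavable site and nocodazole (APY667), and rad17 with a break and nocodazole (APY648). An untagged strain (APY295) with a break and nocodazole gave the background. The AID allele is a degron, and the labels mention no auxin, so the extent of Pds5 loss is not known here. The treatment entry of APY879 names break induction while its title calls the site uncleavable, and the title was followed. The labels do not say whether the libraries of a group are from separate cultures, and the p-values therefore reflect only library-to-library spread, which may be technical. These are bulk cultures, in which less Scc1 per cell and fewer cells carrying it cannot be told apart.

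The break lay at chromosome 5, 119001 to 120000, the centre of the deepest dip in the extracts. Within 5 kb of it coverage was 12.5% to 25.7% of the own median in the 12 extracts with a break and 101% in both without, that of APY879 included. Far from the break the DNA content of the extracts was level with the uncut arms, at 101.7% ± 0.35 of the arm median with a break (SD, n = 12) and 101.8% ± 0.58 without (n = 2; exact two-sided permutation p = 0.681). By the median over windows in place of the mean, the extracts with a break were 1.69 percentage points lower (exact permutation p = 0.0220). Median IP depth in the far windows was 25.4 to 85.5 reads for HA libraries and 2.38 to 49.1 reads for Pk libraries, taking the smallest value of a library as 1 read. The extracts of both no-break strains and of wild type with a break, replicate 2, were more uneven between windows than the rest (SD of log2 coverage 0.493 to 0.801 in these 3, 0.235 to 0.286 in the other 11).

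Scc1 formed a stable pattern of peaks and valleys along the far chromosome 5. Values called relative are log2 of IP over extract minus the level of the uncut arms in the same library, and the mean over the 9 HA libraries defined 22 local maxima above 2-fold of the arms. Neighbouring maxima lay 7 to 34 kb apart, with a median of 15 kb. The highest window was 308001 to 309000, 189 kb from the break, at a relative level of 4.14, which is 17.7-fold over the arms. This mean is raised by the no-break library, which read 6.55 there with its extract at 12.8% of its own median. The other HA libraries read 3.46 to 4.62. The next maxima were 235001 to 236000 at 3.87, 520001 to 521000 at 3.58, 421001 to 422000 at 3.41, 256001 to 257000 at 3.18 and 368001 to 369000 at 3.17. The HA no-break extract was also low at 235001 to 236000 (40.6% of its own median) and 256001 to 257000 (41.2%). The order of close values such as 3.18 and 3.17 is therefore not firm. The lowest windows were 350001 to 351000 at -1.73, 285001 to 286000 at -1.69 and 452001 to 453000 at -1.65. The untagged library read 0.16 to 0.83 at the 6 maxima, with its highest value at 235001 to 236000. No gene was placed on these windows, because the sources used here name no genome build.

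The profiles of the tagged groups were alike. Across the 321 windows, the replicates of a group correlated with Pearson's r of 0.941 to 0.979, and HA and Pk profiles of wild type with a break with 0.973. Wild type with a break against wild type without gave 0.931, rad17 against wild type 0.957 and pds5-AID against wild type 0.912, whereas the wild-type HA profile against the untagged library gave 0.349. Windows share libraries and extracts and are not independent, so these values describe likeness only. The spread between peaks and valleys was smaller in the pds5-AID strains. The range from the 10th to the 90th percentile of far windows was 3.93 in wild type without a break (n = 1), 3.16 ± 0.26 in wild type with a break (SD, n = 2), 2.97 ± 0.10 in rad17, 2.44 ± 0.05 in pds5-AID and 2.45 ± 0.26 in rad17 pds5-AID. The uncut arms ran in parallel, at 3.96, 3.24, 3.01, 2.63 and 2.57 in the same order. In the far part, wild type with a break had a range of 2.97 in replicate 1 and 3.34 in replicate 2. The extracts of replicate 2 and of the no-break library were among the uneven ones, and their part in these ranges was not tested.

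The level of Scc1 over the whole far part, as log2 of mean IP over mean extract and before any centring, was 4.54 in wild type without a break and 4.69 and 4.87 in the libraries of wild type with a break. It was 4.15 and 4.44 in rad17, 3.75 and 4.33 in pds5-AID and 3.09 and 3.44 in rad17 pds5-AID. The rad17 pds5-AID libraries lay below all other HA libraries, while the pds5-AID and rad17 libraries overlapped. The untagged level was 1.03, so the HA libraries stood 4.17-fold to 14.3-fold above the background. Calibrated in this way, the far part of pds5-AID was 0.598-fold of wild type (log2 difference -0.74 ± 0.26, SE; limma adjusted p = 0.0108), and rad17 pds5-AID was 0.584-fold of pds5-AID (-0.78 ± 0.26; limma adjusted p = 0.0157). Of the 31 regions, 96.8% were lower in pds5-AID and 100% were lower in rad17 pds5-AID; nothing particular to chromosome 5 can be read from them. Without pds5-AID replicate 1 the first fall was -0.45 (limma adjusted p = 0.112), and without wild-type replicate 2 it was -0.65 (0.118). The second was -0.48 without pds5-AID replicate 2 (limma adjusted p = 0.142) and -0.60 without rad17 pds5-AID replicate 1 (0.173). With the extract as deposited as divisor neither fall passed, at -0.59 (limma adjusted p = 0.356) and -0.82 (0.179). Neither passed with each region's own spread in place of the shared one (limma adjusted p = 0.0716 and 0.0791). The shared spread was estimated over 31 regions that carry the same library scale. The limma adjusted p-values of 0.0108 and 0.0157 thus treat these regions as if they were independent of each other. The calibrated level differed by 0.24 ± 0.31 with a break (limma adjusted p = 0.861) and differed by -0.49 ± 0.26 in rad17 (0.146), neither of which passed the test (0% of regions called in either direction for each).

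Set against the uncut arms of its own library, the far part of chromosome 5 held an ordinary to low amount of Scc1. Its relative level was -0.11 in HA wild type without a break. With a break it was -0.0089 and 0.012 in wild type, -0.035 and -0.0095 in pds5-AID, -0.053 and -0.045 in rad17, and -0.13 in both libraries of rad17 pds5-AID. The 4 HA libraries with a break and intact RAD17 lay between -0.035 and 0.012, and the 4 with the rad17 mutation lay between -0.13 and -0.045. How many uncut arms separate in this way was not counted. The rad17 difference in PDS5 cells alone did not pass the test (limma adjusted p = 0.0559). In Pk libraries it was -0.12 without a break, -0.042 in cut wild type, -0.084 in rad17 and -0.044 with a break and no nocodazole. Thus in both tags the no-break library was lower than wild type with a break, and rad17 lay between them. The untagged library was at 0.014. Between replicates this measure varied little, with a pooled SD of 0.012, while the uncut arms of an HA library spread with an SD of 0.122 to 0.176. Among 31 regions the far part ranked between 12 and 30 from the highest in HA libraries and between 21 and 27 in Pk libraries.

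**Figure D1:**
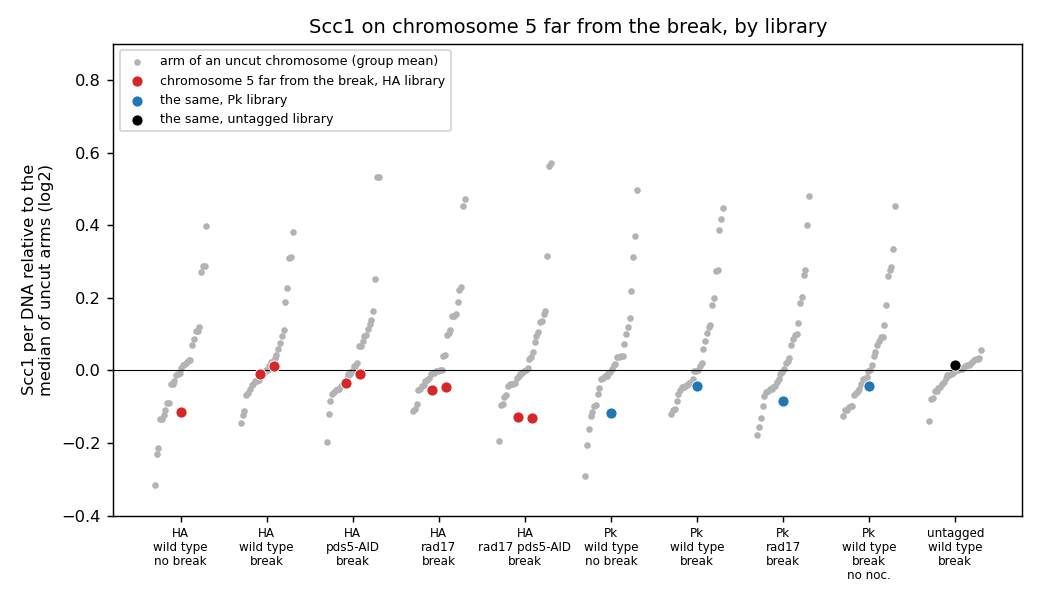
Scc1 per DNA relative to the median of the uncut arms (log2, y axis) by tag, genotype and treatment (x axis). Large points are single libraries of the far part of chromosome 5 and small grey points are group means of the 30 uncut arms. The far part sits near 0 in wild type with a break (-0.0089 and 0.012) and lowest in rad17 pds5-AID (-0.13 in both libraries).

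The first comparison asks whether cohesin far from the break changes when the chromosome is cut. In wild type the far part was 8.31% higher relative to the uncut arms with a break than without (HA, log2 difference 0.12 ± 0.016, SE; limma adjusted p = 0.00361). The no-break group has 1 library, assumed to vary like the other groups. Of all 31 regions, 22.6% were called higher and 12.9% lower, so a called rise was common, and the far part ranked 5 from the highest. The IP signal alone gave 0.11 (limma adjusted p = 0.0116). With either wild-type library with a break left out the difference was 0.10 to 0.13. Leaving out a mutant library cannot change this difference, only its SE. In the Pk pair the same difference was 0.075 and ranked 9 from the highest of 31, without a test. Centring on the median of all single windows, in place of the median of the arm values, turned the Pk difference to -0.079. It ended the HA call (0.14, limma adjusted p = 0.118) and changes the statistic as well as the set of windows. The median over windows also ended the HA call (0.099, limma adjusted p = 0.0783).

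The second comparison asks whether the checkpoint clamp bears on cohesin there. The far part of rad17 changed by -3.45% against wild type relative to the arms, a log2 difference of -0.051 ± 0.013 that did not pass the test (limma adjusted p = 0.0559). It ranked 2 from the lowest, in a table where 0% of regions were called lower and 6.45% higher. By the IP alone it was -0.063 and passed (limma adjusted p = 0.0400), and by the median over windows it was -0.11 and did not (0.0561). The Pk pair differed by -0.042 and ranked 7 from the lowest of 31, without a test. With centring on all windows, which adds 0.10 to the rad17 difference of every region, the sign turned in HA (0.052; limma adjusted p = 0.302) and in Pk (0.060), and the HA rank stayed at 2 from the lowest.

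In pds5-AID the far part differed from wild type by -0.024 ± 0.013 relative to the arms, which did not pass the test (limma adjusted p = 0.178; 16.1% of regions were called higher and 9.68% lower). With its left edge moved 50 kb further from the break the far part differed by -0.061 (limma adjusted p = 0.00650). With centring on all windows, which takes 0.13 from every region, it differed by -0.16 (0.00571).

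In pds5-AID cells the rad17 mutation went with a calibrated difference of -0.78 in the far part. The uncut arms differed by a median of -0.66, with a range of -0.78 to -0.60. Whether the excess over the arm median passed depended on the averaging and the centring. Relative to the arms, rad17 pds5-AID changed by -7.21% against pds5-AID (log2 difference -0.11 ± 0.013; limma adjusted p = 0.00181), where 6.45% of the 31 regions were called lower. The other region called was the left arm of chromosome 3, so the far part was 1 of 2, and it ranked 2 from the lowest. The IP alone differed by -0.11 (limma adjusted p = 0.00411). With any pds5-AID or rad17 pds5-AID library left out the relative difference was -0.12 to -0.095. Leaving out a library of wild type or rad17 cannot change this difference, only its SE. With the median over windows the difference was -0.096 (limma adjusted p = 0.117) and with centring on all windows -0.063 (0.441). The effect of rad17 in pds5-AID cells minus its effect in PDS5 cells was -0.057 ± 0.018 and did not pass the test (limma adjusted p = 0.190; 3.23% of regions called lower), so the rad17 effects with and without the AID allele were not shown to differ. An exact two-sided permutation test over the libraries alone gave p = 0.33 for each of the 3 genotype comparisons, the smallest p that 2 against 2 allows.

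**Figure D2:**
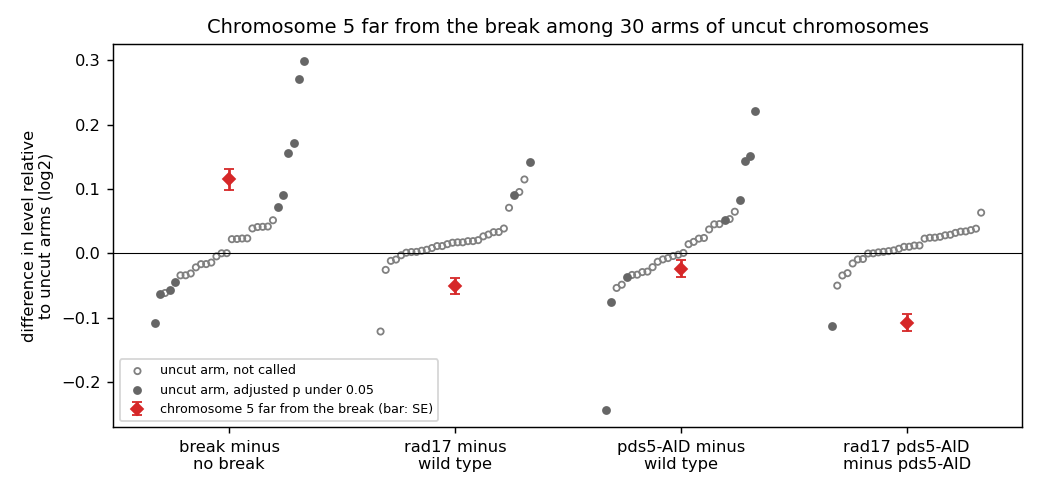
Difference in relative level (log2, y axis) for 4 HA comparisons (x axis), with the far part of chromosome 5 as a diamond (bar: SE) and the 30 uncut arms as circles, filled where the limma adjusted p was under 0.05. The diamond lies at 0.12 for break against no break, at -0.051 for rad17, at -0.024 for pds5-AID and at -0.11 for rad17 pds5-AID against pds5-AID, where a single arm is lower.

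To see how these differences were laid out, the far part was divided into 17 blocks of 20 kb (the last of 13 kb) and tested together with 524 blocks of the uncut arms. With a break 5 of the 17 blocks were higher and 0 lower, against 6.84% of all 541 blocks called higher and 7.95% lower. The median difference of the far blocks was 0.14, that of the arm blocks -0.013. The 5 blocks lay 109.5, 169.5, 229.5, 269.5 and 369.5 kb from the break, with blocks that were not called between them. By the IP alone 3 of the 5 were called (1.85% of all blocks higher, 0.924% lower), and without wild-type replicate 1 there were 3, as there were without either rad17 library. The Pk pair gave the same sign at each of the 5, with differences of 0.075 to 0.47.

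Most far blocks lay slightly lower in the strains with the rad17 mutation. In rad17 against wild type 13 of 17 far blocks lay below 0, with a median of -0.064, against 49.6% of arm blocks, and 1 far block was called lower (0.370% of all blocks; 0.185% higher). In rad17 pds5-AID against pds5-AID 16 of 17 far blocks lay below 0, with a median of -0.11 and a range of -0.21 to 0.028, against 51.0% of arm blocks with a median of -0.0012. None of these 17 was called by limma at the block scale, where 0% of blocks were called in either direction. The decrease of the whole far part was thus shallow and spread over the blocks. In pds5-AID 4 far blocks rose and 5 fell, against 24.4% of all blocks higher and 32.5% lower. By the IP alone 5 rose and 7 fell, against 29.6% and 37.5% of all blocks.

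**Figure D3:**
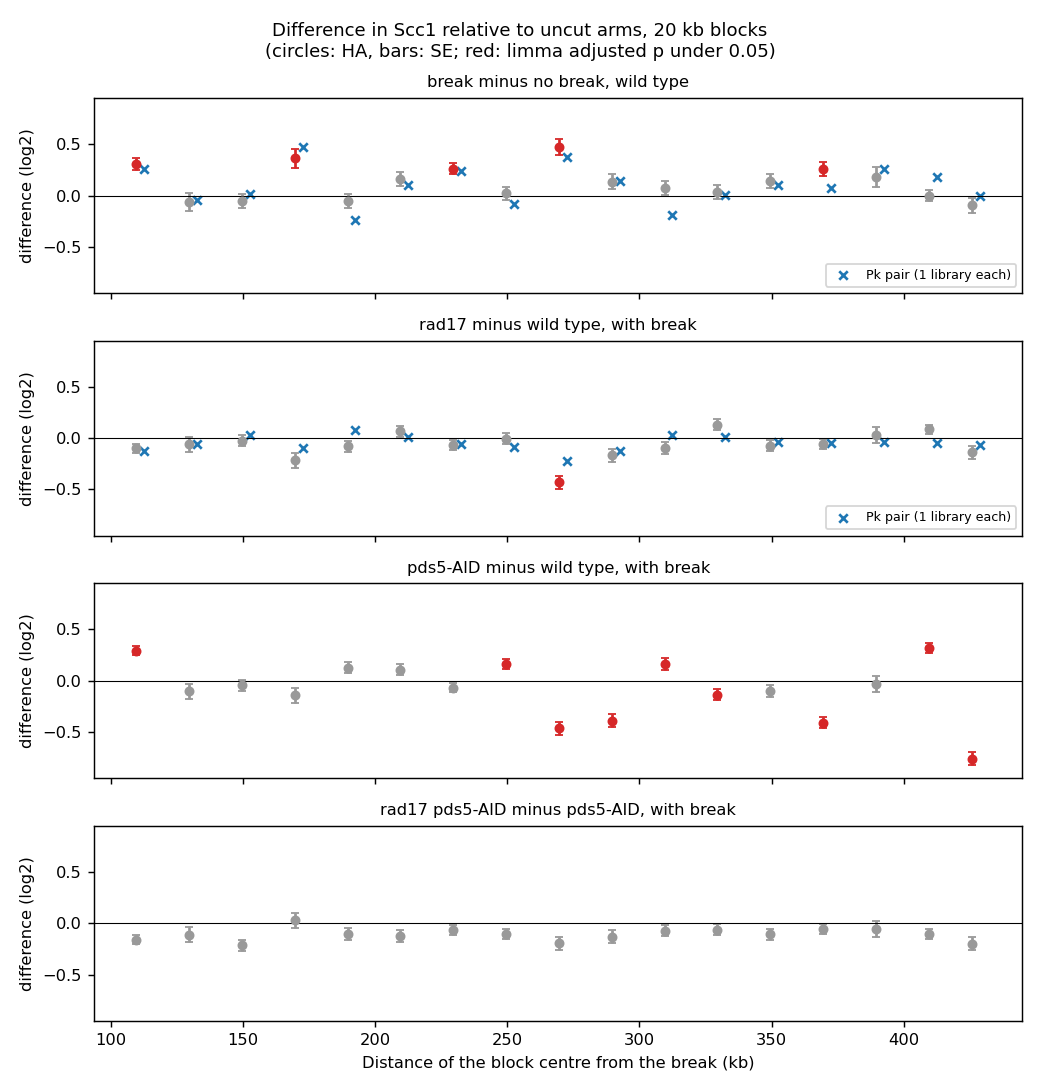
Difference in relative level (log2, y axis) of 20 kb blocks against the distance of the block centre from the break (kb, x axis) for 4 comparisons. Circles are HA differences with SE, red where the limma adjusted p was under 0.05, and crosses (drawn 3 kb to the right) are the Pk pair with 1 library each. Break against no break shows 5 called blocks above 0, and rad17 pds5-AID against pds5-AID lies below 0 in 16 of 17 blocks.

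Across the 17 blocks the difference correlated with the distance from the break with a Pearson's r of -0.13 for break, 0.18 for rad17, -0.36 for pds5-AID and 0.086 for rad17 pds5-AID against pds5-AID (Spearman's rho -0.12, 0.21, -0.23 and 0.24), given as a description of neighbouring blocks that share libraries. The 9 blocks nearer to the break had a median break difference of 0.16 and the 8 farther ones 0.11. For rad17 pds5-AID against pds5-AID these medians were -0.11 and -0.088, for pds5-AID -0.044 and -0.12, and for rad17 -0.064 and -0.064.

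The block at 379001 to 399000, centred 269.5 kb from the break, set wild type with a break apart from the other groups. Its relative level was -0.31 and -0.27 in these 2 libraries. In wild type without a break it was -0.76. The mutants with a break read -0.65 and -0.79 in rad17, -0.74 and -0.77 in pds5-AID and -0.87 and -1.02 in rad17 pds5-AID. Both wild-type libraries with a break lay above all 7 other HA libraries, and the untagged library read 0.035. The block had the largest break difference and the lowest rad17 difference of the far blocks and was named for them. The order of its libraries follows in part from that choice, and how often this order occurs among all blocks was not counted. Its difference was 0.47 ± 0.08 for break against no break (limma adjusted p = 0.00574), -0.43 ± 0.06 for rad17 against wild type (0.00860) and -0.46 ± 0.06 for pds5-AID against wild type (1.58e-04). These 3 comparisons share the wild-type libraries with a break, so they are not independent.

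Without division by the extract the block differed by 0.41 with a break (limma adjusted p = 0.0302), by -0.32 in rad17 (0.0367) and by -0.37 in pds5-AID (1.89e-04). In the Pk libraries the block stood at -0.82 without a break, -0.45 in cut wild type, -0.67 in rad17 and -0.65 with a break and no nocodazole, so wild type with a break and nocodazole was again the highest. By the median over its windows the block differed by -0.16 in rad17 (limma adjusted p = 0.534) and by -0.16 in pds5-AID (0.373), and without rad17 replicate 1 or 2 the rad17 call was lost (limma adjusted p = 0.0591 and 0.187). The neighbouring block at 399001 to 419000 read -0.53 and -0.35 in cut wild type, -0.63 and -0.58 in rad17, and -0.80 and -0.86 in pds5-AID. There pds5-AID was 0.39 lower (-0.39 ± 0.06; limma adjusted p = 3.33e-04), and the rad17 difference of -0.17 did not pass (0.161).

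**Figure D4:**
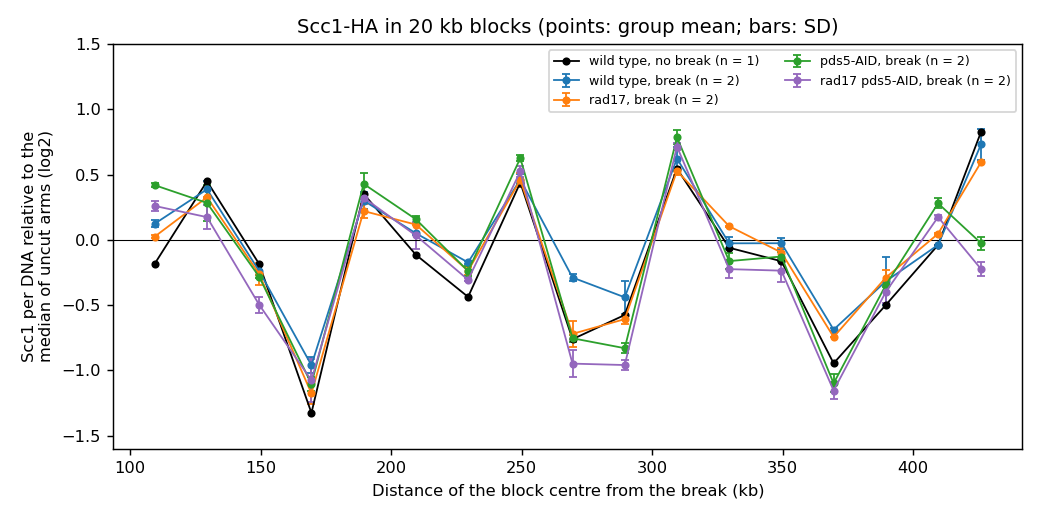
Relative level of Scc1-6HA (log2, y axis) in 17 blocks against the distance of the block centre from the break (kb, x axis), as group means with SD (n = 2 each; wild type without a break n = 1). The groups follow the same peaks and valleys, and wild type with a break stands above the rest at 269.5 kb (-0.31 and -0.27 against -0.65 or less).

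The rises with a break in the other blocks were seen in both tags at 219001 to 239000, which read -0.18 without a break and 0.10 and 0.14 in wild type with a break (HA difference 0.31 ± 0.06, limma adjusted p = 0.00828; Pk -0.16 and 0.10). The valley block at 279001 to 299000 read -1.33 without a break and -0.92 and -1.003 with a break (0.37 ± 0.09; limma adjusted p = 0.0267; Pk -1.56 and -1.09). The call of this valley block was lost by the IP alone (0.26; limma adjusted p = 0.147), by the median over windows (0.23; 0.171), without wild-type replicate 1 (0.0628) and without either rad17 library (0.0573). Across the 17 blocks HA and Pk break differences correlated with Pearson's r of 0.789 (Spearman's rho 0.779) and rad17 differences with 0.669 (0.542). Over the 524 arm blocks these were 0.821 (0.794) and 0.538 (0.48), so the arms showed a likeness between tags of about the same size. The no-break extracts of both tags were among the uneven ones, and their part in these values was not tested. Without division by the extract the far-block correlations were 0.797 for break and 0.624 for rad17.

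In pds5-AID some far blocks rose and others fell. The terminal block at 539001 to 552000 read 0.65 and 0.82 in wild type and -0.061 and 0.0086 in pds5-AID, a fall of 0.76 ± 0.06 (-0.76; limma adjusted p = 8.84e-06), and -0.18 and -0.26 in rad17 pds5-AID. The block next to it at 519001 to 539000 rose, from -0.037 and -0.040 in wild type to 0.25 and 0.31 in pds5-AID (0.32 ± 0.05; limma adjusted p = 2.19e-04). The block nearest the break, 219001 to 239000, also rose, from 0.10 and 0.14 to 0.41 and 0.43 (0.29 ± 0.05; 3.68e-04). By the median over windows both rises lost their calls, at 0.16 (limma adjusted p = 0.259) and 0.24 (0.101), and with centring on all windows the latter was 0.16 (0.0527). The block at 479001 to 499000 fell from -0.68 and -0.70 to -1.05 and -1.15 (-0.41 ± 0.05; limma adjusted p = 1.12e-04). These 4 blocks were picked by this difference, in a table where 24.4% of blocks rose and 32.5% fell. The lack of overlap between wild type and pds5-AID in them is therefore no separate support.

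At 1 kb resolution, of the 321 windows, 49 (15.3%) were lower and 21 (6.54%) higher in pds5-AID, against 14% and 7.65% of all 11637 windows, so the far part was close to the genome. By the IP alone 33 were higher and 69 lower, against 12.9% and 20.8% of all windows. Without wild-type replicate 1 the total was 108 in place of 70, without pds5-AID replicate 1 it was 17, and without pds5-AID replicate 2 it was 36. The peak window 479001 to 480000, 360 kb from the break, read 2.39 and 3.82 in wild type and 0.93 and 1.01 in pds5-AID (-2.13 ± 0.34; limma adjusted p = 0.00199). It was 2.48 and 2.41 in rad17 and 0.34 and 0.92 in rad17 pds5-AID. All 4 libraries with the AID allele lay below the 4 with a break and intact PDS5, in a window picked for its fall in pds5-AID.

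The window 539001 to 540000, a strong peak 420 kb from the break, read 3.20 and 3.66 in wild type and 1.55 and 1.97 in pds5-AID (-1.67 ± 0.20; limma adjusted p = 6.77e-04). The window 388001 to 389000 read 1.31 and 2.94 in wild type and 0.20 and 0.28 in pds5-AID (-1.88 ± 0.36; limma adjusted p = 0.00458). It lies in the block in which wild type with a break stood apart. Without division by the extract these 3 falls were -1.43, -1.48 and -1.02, and each passed the test (the highest limma adjusted p was 7.09e-05). Of the 6 highest peaks 2 passed in pds5-AID. The peak 256001 to 257000 fell by 1.01 (-1.01 ± 0.23; limma adjusted p = 0.00945) and 235001 to 236000 by 0.66 (-0.66 ± 0.21; 0.0421). The peak at 520001 to 521000 read 3.46 and 3.59 in wild type and 3.62 and 3.86 in pds5-AID, and its difference of 0.22 ± 0.18 did not pass (limma adjusted p = 0.413). The other 3 did not pass either, with -0.63 at 308001 to 309000 (limma adjusted p = 0.0610), -0.37 at 421001 to 422000 (0.139) and -0.17 at 368001 to 369000 (0.572).

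Of the leading rises in pds5-AID, the window 365001 to 366000 read 0.39 and 0.041 in wild type and 1.17 and 1.26 in pds5-AID (1.00 ± 0.19; limma adjusted p = 0.00405). The valley window 514001 to 515000 read -1.42 and -1.98 in wild type and -0.94 and -0.79 in pds5-AID (0.84 ± 0.22; limma adjusted p = 0.0198). In the run of called windows from 219001 to 225000, the window 222001 to 223000 read -0.65 and -0.54 in wild type and 0.52 and -0.039 in pds5-AID (0.83 ± 0.19; 0.0110). These 3 windows were picked as leading called rises, so the lack of overlap between wild type and pds5-AID in them is no separate support. The call at 514001 to 515000 was lost without wild-type replicate 2 (0.56; limma adjusted p = 0.0869) and without pds5-AID replicate 1 (0.0870) or 2 (0.0979), and that at 222001 to 223000 without pds5-AID replicate 1 (0.55; 0.141).

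The break gave many called windows that depended on the extracts. Of the 321 windows 41 (12.8%) were higher and 29 (9.03%) lower with a break, against 6.20% and 11.9% of all windows. Without wild-type replicate 2 the total was 139 in place of 70, and it was 45 without wild-type replicate 1 and 46 without either rad17 library. Without division by the extract 0 of the 321 were called by limma in either direction (0.473% of all windows higher, 0.180% lower). The highest peak, 308001 to 309000, read 6.55 without a break and 3.89 and 4.62 in wild type with a break (-2.30 ± 0.27; limma adjusted p = 7.71e-04). The extract of the HA no-break library there was at 12.8% of its own median, against a median of 94.3% in the other extracts, and the IP alone differed by -0.30 (limma adjusted p = 0.611).

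The next falls with a break were at 546001 to 547000 (-1.76 ± 0.37; limma adjusted p = 0.00842) and 478001 to 479000 (-1.56 ± 0.36; 0.0125), where the IP alone differed by -0.13 (limma adjusted p = 0.836) and -0.24 (0.663). The leading rises were at 508001 to 509000, from -1.52 without a break to -0.042 and -0.27 with it (1.37 ± 0.21; limma adjusted p = 0.00209), and at 228001 to 229000, from -1.70 to -0.31 and -0.80 (1.14 ± 0.23; 0.00651). The window 380001 to 381000 rose from -1.20 to 0.42 and -0.47 (1.18 ± 0.30; limma adjusted p = 0.0197). By the IP alone these 3 rises were 0.50, 0.76 and 0.27 (limma adjusted p = 0.248, 0.0608 and 0.661). In the Pk pair the 3 rises were 0.99, 1.07 and 0.99, with an uneven no-break extract there too.

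In rad17 1 far window passed the test and it was lower (0.0602% of all windows lower, 0.0945% higher). The window 227001 to 228000, 108 kb from the break, read 0.38 and 0.96 in cut wild type and -0.46 and -0.52 in rad17 (-1.16 ± 0.20; limma adjusted p = 0.0449). It read -0.20 and -0.078 in pds5-AID and -0.32 and -0.30 in rad17 pds5-AID, so wild type was the highest with a break. Wild type without a break read 0.94. The window was named for its fall in rad17, so this order follows in part from that choice. How often the order occurs among all windows was not counted. The IP alone differed by -0.73 (limma adjusted p = 0.0325) and the Pk pair by -0.22. The call was lost in 7 of the 8 fits with a library left out. Without wild-type replicate 1 the count of called windows was 54 in place of 1.

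Between rad17 pds5-AID and pds5-AID limma called 0 of the 321 windows (0.0344% of all windows higher, 0.327% lower), with 13 at an unadjusted p under 0.05. The difference between both rad17 effects likewise called 0 windows (0% higher and 0.00859% lower of all windows), with 24 of the 321 at an unadjusted p under 0.05. The share of all windows at an unadjusted p was not counted, so 13 and 24 describe the far part only. The minimum at 350001 to 351000 read -2.31 and -2.39 in cut wild type, -1.004 and -1.24 in rad17 and -1.34 and -1.88 in pds5-AID. It was 0.74 ± 0.22 higher in pds5-AID than in wild type (limma adjusted p = 0.0301), but 0.34 by the IP alone, which did not pass (0.172), and 1.23 ± 0.22 higher in rad17, which did not pass the test (0.05004).

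Nocodazole made little difference to the far part in the Pk pair with a break, at -0.042 with and -0.044 without it relative to the arms. The calibrated levels were 4.27 with and 4.51 without nocodazole, each from 1 library, and the library without nocodazole had the lowest depth (2.38 reads per far window).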

How the data were processed

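The deposited signal is read coverage in 1 kb windows, the same windows in each of the 28 libraries. Per the submitters' processing notes Bowtie2, SAMtools, bedtools and MACS2 were used, with no versions. The series description states a calibration with Candida glabrata. No genome build is named in these sources, so no gene or sequence was placed.

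Each extract was divided by its own median, and windows at 0.25 to 4 of it on average were kept (11637). Region and block values are log2 of mean IP over mean extract. Window values carry a pseudocount of 5% of the library median, which understates changes of low windows. Relative levels subtract the median of the uncut arms. Approximate centromeres were the highest 21-window running means of Scc1. The break was put where the extracts with a break, over those without, had their lowest mean over 5 windows.

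The 9 HA libraries were fitted with limma 3.58.1 (R 4.3.3) as 5 group means, with Benjamini-Hochberg adjustment over 31 regions, 541 blocks or 11637 windows and a threshold of 0.05; the steps were tested on simulated data. The Pk and untagged groups, of 1 library each, were not tested. Named were the 6 highest maxima and 3 lowest windows by mean, up to 3 joined runs of called windows (at most 2 kb apart) per direction, and the 2 largest and 2 smallest block differences per comparison; other blocks, and window comparisons at maxima or minima, were added after their values were seen. The members, lists and tests were chosen with earlier results of these data known. Alternatives covered the extract, variance, centring, filter, pseudocount, averaging, edges and left-out libraries.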

Additional observations from a re-analysis of the deposited data

How the results depend on the processing

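Of 716 alternative values, 587 kept their direction and side of the threshold, or stayed within the replicate spread. Some of these alternatives could not move the value. The extract as deposited cancels out of relative levels, and leaving out a library outside a comparison changes only its SE. The exact permutation p cannot fall below 0.33 with 2 against 2. The count of 587 is therefore no measure of robustness. Centring on all kept windows subtracts the median of single-window log2 values. The main setting subtracts the median of arm values, which are ratios of means, so the statistic changes as well as the windows. Of the 11637 kept windows, 10260 lie on uncut arms. At the window scale both centres are medians of windows, and this centring called 66 windows for break and 68 for pds5-AID, in place of 70 each. It shifts every region of a library by the same constant. Under it the relative break difference was 0.14 (limma adjusted p = 0.118), rad17 0.052 (0.302; exact permutation p = 0.33), pds5-AID -0.16 (0.00571), rad17 pds5-AID against pds5-AID -0.063 (0.441), Pk break -0.079 and Pk rad17 0.060, and rad17 called 2 windows and 2 blocks. By the median over windows these were 0.099 for break, -0.11 for rad17 (0.0561), -0.096 for rad17 pds5-AID against pds5-AID, 0.013 for the difference between rad17 effects, 0.099 for Pk break, 0.0038 for Pk rad17 and -0.63 for calibrated rad17 (limma adjusted p = 0.0382), with 3 blocks for break, 0 for rad17 and 4 for pds5-AID. The IP alone gave 0 windows and 3 blocks for break, -0.063 for rad17, 1 block for rad17 pds5-AID against pds5-AID, 0.048 for Pk break and -0.023 for Pk rad17. The extract as deposited gave calibrated differences of -0.39 for break, -0.59 for pds5-AID and -0.82 for rad17 pds5-AID against pds5-AID, and both falls lost their calls (limma adjusted p = 0.356 and 0.179). With each feature's own spread there were 0 windows and 0 blocks for break and rad17, 10 windows for pds5-AID, and the calibrated falls of -0.74 and -0.78 lost their calls (limma adjusted p = 0.0716 and 0.0791). The cause was not tested.

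The relative rad17 difference passed with the left edge moved (-0.051), with stricter arms (-0.071) and without windows beside unkept runs (-0.054), an alternative chosen after seeing the data. The pds5-AID difference passed with the left edge moved (-0.061). Rad17 called 0 windows without the filter and with the left edge moved, and 2 with a pseudocount of 20%, with stricter arms and without windows beside unkept runs. Moving the left edge leaves out the window 227001 to 228000, on which the main call rested, so that 0 was fixed in advance. Pk break was 0.060 with stricter arms and 0.11 without windows beside unkept runs. The extract difference between break and no break was -1.69 percentage points by medians and 0.34 without the Pk extracts, and that between rad17 and RAD17, which was 0.095, was -0.45 and -0.052.

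With a library left out, windows called ran from 45 to 139 for break, 0 to 54 for rad17, 17 to 108 for pds5-AID and 0 to 17 for the difference between rad17 effects, and blocks from 3 to 6 for break and 0 to 3 for rad17. Relative rad17 ran from -0.061 to -0.040, calibrated pds5-AID from -1.03 to -0.45, calibrated rad17 pds5-AID against pds5-AID from -1.07 to -0.48, and the calibrated difference between rad17 effects from -0.58 to 0.0029. The share of all windows or blocks called in these fits was not counted. The single no-break library could not be left out. Among 320 alternatives for single windows and blocks, 275 kept their call, 45 lost it and 0 reversed. These too include alternatives that could not move the difference.

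The replicate numbers were not taken to pair the samples, since not every correlation of same-numbered deviations between groups was over 0.1 (0.0847 to 0.340). The calibrated far level was higher in replicate 2 in 4 of 4 genotypes, a hint from the data and not from the labels. With a replicate block, relative rad17 was -0.051 (limma adjusted p = 0.0221) and calibrated rad17 -0.49 (7.37e-04), both past the threshold. Rad17 then called 4 windows and 2 blocks. The no-break library, whose title gives no replicate number, was coded as replicate 1 in this block. With that coding the calibrated break difference was 0.069 (limma adjusted p = 0.999), and 123 windows were called for break. Both break values depend on the coding, and coding it as replicate 2 was not run.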

Other observations

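The left arm of chromosome 3 (20001 to 94000, 70 windows) was the other region called lower in rad17 pds5-AID against pds5-AID. Its relative level was -0.11 in wild type without a break and 0.19 in both libraries of wild type with a break. It was 0.20 and 0.24 in rad17, 0.12 and 0.11 in pds5-AID, and -0.0023 and 0.0041 in rad17 pds5-AID. In the group means of rad17 and wild type with a break this arm differed by 0.033 (limma adjusted p = 0.177).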
